A study of Homo sapiens with 4 samples.

Results

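Messenger RNA of 7 genes of outer mitochondrial membrane channels and mitochondrial protein import was examined in the human cell line NUDUL1. The table of expression values held 25066 genes. NUDUL1 was derived from a diffuse large B cell lymphoma of the germinal center type. The 7 genes were the channels VDAC1, VDAC2 and VDAC3 and the import genes TOMM20, TOMM22, TOMM34 and TOMM40, each found in the table by its symbol. They were chosen with their values in view, among them a higher VDAC3 value in GNA13-deficient cells, so their differences between genotypes are given below as a description and without a test. GNA13 encodes Gα13, a G protein subunit that signals downstream of cell surface receptors.

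All cells carried doxycycline-inducible Cas9 in a single-cell clone and the transduced receptor Tbxa2r, and were sorted on the Thy1.1 reporter. Cells with a control sgRNA and cells with a GNA13 sgRNA were compared, with 1 sgRNA and 2 libraries per genotype. Every library came from cells given 10 nM U46619, a stable thromboxane A2 analog that acts on Tbxa2r, for 24 h, so no untreated cells were compared. Total mapped reads were between 29209544 and 31537955 per library. GNA13 mRNA itself stood at 12.46 and 12.45 (log2) in the control libraries. In those labelled GNA13-deficient it stood at 13.10 and 13.11, so the mRNA of the targeted gene was not lower and the labels alone give the directions below. Cas9 edits can leave mRNA in place, and the protein was not measured here. The 7 germinal center B cell markers examined were at 8.23 to 14.33 in all libraries, with summed levels of 16.07 to 16.22, and BCL6 alone of them was over 2 log2 units lower in GNA13-deficient libraries. The 10 markers of other cell types were at 0 to 7.43. CD3D, CD3E and HBB were at 0 in every library. CD4 was at 6.87 and 7.43 in control and 3.62 and 2.43 in GNA13-deficient libraries, LYZ at 6.40 and 6.35, then 3.50 and 4.19, and EPCAM at 5.24 and 5.50, then 6.50 and 6.70. These 10 markers summed to 8.0 and 8.29 in control and to 7.03 and 7.11 in GNA13-deficient libraries, and their part in the results was not tested.

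VDAC proteins are beta-barrel channels through which ATP, ADP, other metabolites and ions cross the outer mitochondrial membrane, and hexokinases and other partners dock on them. The TOM complex is the entry gate for nearly all nuclear-encoded mitochondrial proteins. TOMM20 and TOMM22 are receptors that recognize precursor proteins, and TOMM40 is the beta-barrel pore they pass through. TOMM34 is a cytosolic cochaperone that binds heat shock proteins and precursors and is not a subunit of the pore.

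In the GRCh37 annotation from GENCODE, the genes lie at chr5:133307562-133340666 on the minus strand for VDAC1, chr10:76969912-76991206 on the plus strand for VDAC2 and chr8:42249142-42263455 on the plus strand for VDAC3. TOMM20 lies at chr1:235272656-235292152 on the minus strand, TOMM22 at chr22:39077962-39081426 on the plus strand, TOMM34 at chr20:43570771-43589038 on the minus strand and TOMM40 at chr19:45393826-45406946 on the plus strand. Exons of VDAC1 overlap exons of a long noncoding gene on the opposite strand, and the other members overlap no other gene's exons. Whether the reads were counted by strand is not given in the sources used here, so the VDAC1 value may include reads of that gene.

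Of the 7 genes, VDAC1 was the most abundant and VDAC3 differed most between genotypes. Values are normalized reads on the log2 scale, and differences are the mean of the GNA13-deficient libraries minus the mean of the control libraries with the standard error (SE) of the linear model.

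VDAC1, the main VDAC isoform in most cells, was at 14.03 and 14.09 in the control libraries and 14.39 and 14.41 in the GNA13-deficient libraries. Both GNA13-deficient libraries were above both control libraries. The difference was 0.34 (SE 0.07, n = 2 per genotype), or 1.26-fold.

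VDAC2, which also holds the apoptosis effector BAK at the outer membrane, was at 12.68 and 12.87 in the control libraries and 12.90 and 12.98 in the GNA13-deficient libraries. The genotypes did not overlap, but the gap between them was 0.03, less than the 0.196 between the 2 control libraries. The difference was 0.16 (SE 0.08), or 1.12-fold.

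VDAC3, the isoform with several redox-sensitive cysteines, was at 11.74 and 11.92 in the control libraries and 12.73 and 12.89 in the GNA13-deficient libraries. The genotypes were separated by a gap of 0.809, several times the distance between replicates. The difference was 0.98 (SE 0.09), or 1.98-fold, and was larger in size than that of 82.8% of the genes tested.

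**Figure D1:**
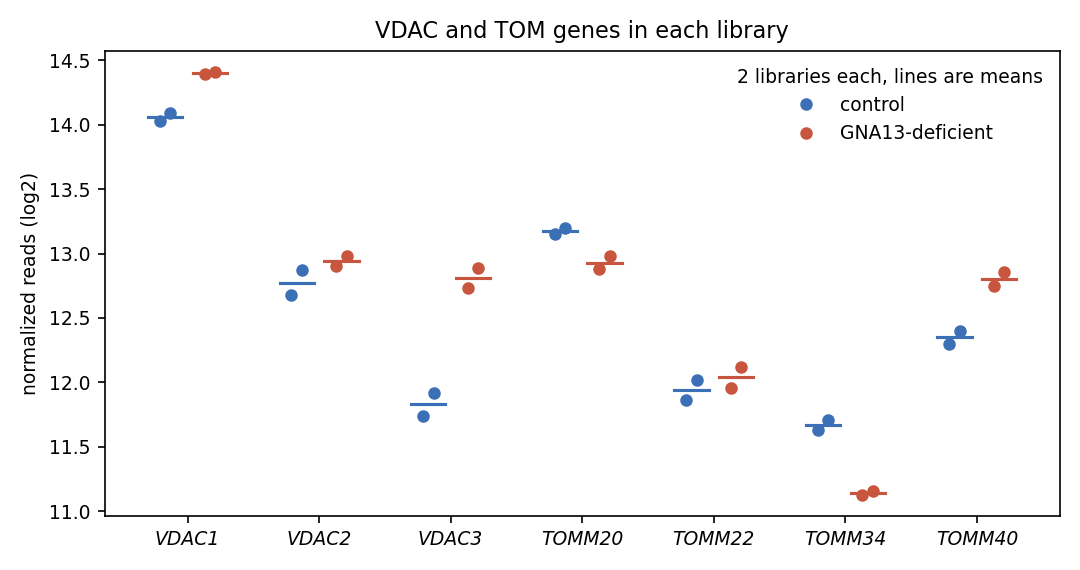
Normalized reads (log2, vertical axis) of the 7 genes in each of the 4 libraries, as points, with the mean of each genotype as a line. The VDAC3 points are at 11.74 and 11.92 in control and 12.73 and 12.89 in GNA13-deficient cells, while the TOMM22 points of the genotypes overlap.

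TOMM20, the main presequence receptor, was at 13.15 and 13.20 in the control libraries and 12.88 and 12.98 in the GNA13-deficient libraries. Both GNA13-deficient libraries were below both control libraries. The difference was -0.24 (SE 0.06), or 1.18-fold lower.

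TOMM22, the central receptor that ties pore units together, was at 11.86 and 12.02 in the control libraries and 11.96 and 12.12 in the GNA13-deficient libraries. The genotypes overlapped, and TOMM22 was the only member of which this was true. The difference was 0.10 (SE 0.09).

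TOMM40, the pore itself, was at 12.30 and 12.40 in the control libraries and 12.75 and 12.86 in the GNA13-deficient libraries. Both GNA13-deficient libraries were above both control libraries, by a gap larger than the distance between replicates. The difference was 0.46 (SE 0.07), or 1.37-fold.

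TOMM34 was at 11.63 and 11.71 in the control libraries and 11.13 and 11.16 in the GNA13-deficient libraries. The genotypes did not overlap. The difference was -0.53 (SE 0.06), or 1.44-fold lower, so the cochaperone and the pore differed in opposite directions.

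Promoters are shown for TOMM20, TOMM34 and TOMM40, import genes of which the first pair was lower and TOMM40 higher in the GNA13-deficient libraries and each of which holds the same motif. RefSeq promoter windows were at hand for TOMM20, TOMM22, TOMM34, TOMM40, VDAC1 and VDAC2, in build GRCh38.p14, unlike the gene positions above. The 250 bases before each start were searched on both strands for GCGCANGCG, bound by nuclear respiratory factor 1 (NRF1), for CCGGAAG, bound by GABP, and for the E-box CACGTG. These motifs do not overlap each other in the windows printed, and were chosen with the values known. Capitals mark the matches.
TOMM20: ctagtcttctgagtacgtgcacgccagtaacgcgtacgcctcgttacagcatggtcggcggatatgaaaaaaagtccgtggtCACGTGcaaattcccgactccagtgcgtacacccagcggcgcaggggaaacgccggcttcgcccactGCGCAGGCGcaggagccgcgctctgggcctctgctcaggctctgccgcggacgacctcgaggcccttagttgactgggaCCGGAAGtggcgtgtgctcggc
TOMM34: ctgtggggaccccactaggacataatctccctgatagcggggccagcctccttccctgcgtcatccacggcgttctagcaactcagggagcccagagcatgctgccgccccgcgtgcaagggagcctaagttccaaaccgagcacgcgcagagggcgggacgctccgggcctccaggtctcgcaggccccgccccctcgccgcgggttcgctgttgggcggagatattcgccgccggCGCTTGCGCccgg
TOMM40: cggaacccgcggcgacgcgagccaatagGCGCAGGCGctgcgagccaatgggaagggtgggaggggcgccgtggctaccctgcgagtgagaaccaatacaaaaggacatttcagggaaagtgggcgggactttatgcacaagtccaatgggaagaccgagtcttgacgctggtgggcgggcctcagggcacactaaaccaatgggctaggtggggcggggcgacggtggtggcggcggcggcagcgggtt
The windows are chr1:235128838-235129087 on the minus strand, chr20:44960398-44960647 on the minus strand and chr19:44891004-44891253 on the plus strand.

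The NRF1 letters began 101 bases before the start in TOMM20, 13 bases before it in TOMM34 and 222 bases before it in TOMM40, and 6.56% of 35116 such windows hold them. The GABP letters were in TOMM20 at 22 bases before the start, in a VDAC1 window at 134 and in a VDAC2 window at 161, against 8.52% of all windows. The E-box was in TOMM20 at 168 bases and in a VDAC2 window at 100 bases, against 6.34% of all windows. VDAC1 has 4 windows and VDAC2 has 2, so these genes had more chances of a match than the share per window. No match was found in the TOMM22 window. That TOMM20 and TOMM34, which were lower, and TOMM40, which was higher, hold the same letters follows from the choice of windows shown. A match describes the sequence only, and binding was not measured.

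In the fit across all genes, 5 of the 7 members had an adjusted p under 0.05, against 29.7% of the 16945 genes tested. VDAC1, VDAC3 and TOMM40 were higher and TOMM20 and TOMM34 lower, against 13.1% of all genes called higher and 16.6% called lower. The count of members called was 1 with no filter, 2 with no variance trend, 4 with quantile normalization, 6 with the replicate block and 0 with any library left out. The genotypes did not overlap for 6 of the 7 members, as for 65.3% of the genes tested. The median difference was 0.16 over the members and -0.02 over all genes tested. Since the members were chosen on this contrast, these counts describe the choice and carry no further weight.

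The deposited scaling sets the size of each difference. Centring each library on its median moved the median difference of all genes to 0.184, and the share of called genes that were higher, 2218 of 5037 as deposited, to 69.1%. On that scale VDAC3 differed by 1.19 and TOMM20 by -0.03, so TOMM20 was near equal between genotypes there. No member changed direction under any scaling tried. A difference in RNA per cell, or in the share of cells of a given state, cannot be told apart in bulk RNA. The labels name duplicates without saying whether they were separate cultures, so SE and p values measure the spread between these libraries. Replicate 2 was above replicate 1 in both genotypes for all 7 members, by 0.016 to 0.196, as it was for 36.4% of the 8473 more abundant genes.

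Each member had between 2126 and 20937 reads in each library. Pseudogenes related to the members numbered 33 in RefSeq, and reads could be split between them and their parent genes. Those found in the table, 3 of the 33, were far below their parents, and for the others no value was at hand. VDAC2P5 was at 8.90 and 8.65 in control and 8.65 and 8.55 in GNA13-deficient libraries, TOMM40P1 at 5.46 to 5.68 in the 4 libraries and TOMM40P2 at 3.69 to 4.85.

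Levels can be compared between genes only per length, and were expressed as normalized reads per kb of the longest coding transcript. In the control libraries the order was VDAC1, VDAC2, TOMM20, VDAC3, TOMM22, TOMM34 and TOMM40, and no neighbours overlapped. VDAC1 was at 8943.7 and 9336.4 reads per kb and TOMM40, the lowest, at 1473.6 and 1581.5. In the GNA13-deficient libraries VDAC3 was close to VDAC2, with 4784.5 and 5367.9 reads per kb against 5069.2 and 5324.9, and this pair overlapped. TOMM40, at 2014.4 and 2181.5, overlapped TOMM22, at 1963.0 and 2196.2, and TOMM34 was lowest, at 1135.1 and 1159.0. The order rests on the transcript chosen. With the median transcript length VDAC3, at 8938.6 and 10028.6 in the GNA13-deficient libraries, was above VDAC2, at 8232.7 and 8648.0, without overlap. TOMM40, at 4027.6 and 4361.8, then no longer overlapped TOMM22. On that scale TOMM40 also stood above TOMM20, TOMM22 and TOMM34 in control cells.

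The 3 VDAC genes made up a pool whose summed level was 15688.4 and 17032.1 reads per kb in the control libraries and 21324.2 and 22291.3 in the GNA13-deficient libraries, or 1.333-fold higher on the mean. VDAC3 took 15.37% and 16.03% of this pool in control cells and 22.44% and 24.08% in GNA13-deficient cells. VDAC2 took 27.63% and 29.15% in control and 23.77% and 23.89% in GNA13-deficient cells. VDAC1 took 57.01% and 54.82%, then 53.79% and 52.03%, so it remained the largest share in every library. With the median transcript length the VDAC3 share was 22.07% in control and 31.82% in GNA13-deficient cells, as means, so the level of the share depends on the length used while its direction did not.

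**Figure D2:**
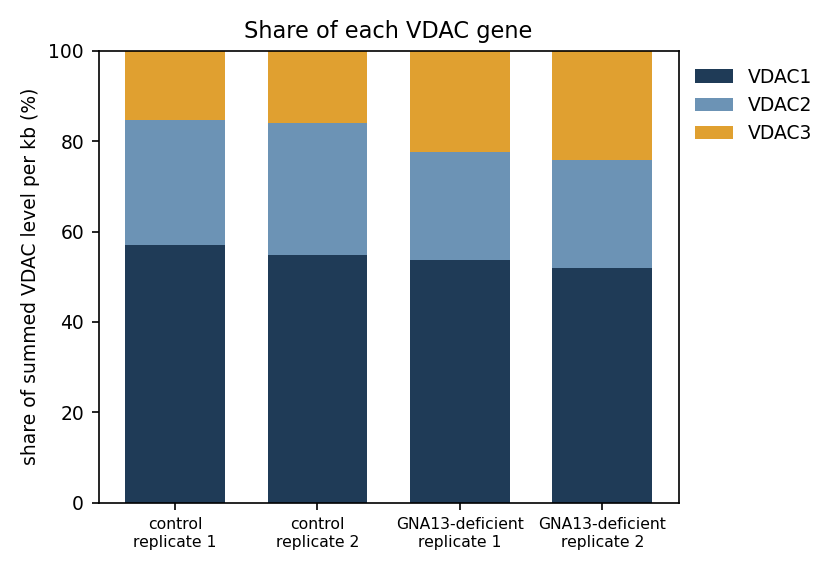
Share (%, vertical axis) of each VDAC gene in the summed VDAC level per kb, as stacked bars for each library. The VDAC3 segment is 15.37% and 16.03% in the control libraries and 22.44% and 24.08% in the GNA13-deficient libraries.

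A ratio of 2 genes within a library is free of any factor applied to the whole library. The ratio of VDAC3 to VDAC2, per kb, was 0.556 and 0.550 in the control libraries and 0.944 and 1.01 in the GNA13-deficient libraries, a change of 0.82 on the log2 scale. The ratio of VDAC3 to VDAC1 was 0.270 and 0.293 in control and 0.417 and 0.463 in GNA13-deficient libraries. VDAC3 thus stood higher against both other channels. The ratio of VDAC2 to VDAC1 was 0.485 and 0.532, then 0.442 and 0.459, a small change in the other direction.

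Within the TOM genes the pore stood higher against its receptors. The ratio of TOMM40 to TOMM20 was 0.531 and 0.553 in the control libraries and 0.876 and 0.885 in the GNA13-deficient libraries, a change of 0.70 on the log2 scale. The ratio of TOMM40 to TOMM22 was 0.804 and 0.772, then 1.03 and 0.993. TOMM22 also stood higher against TOMM20, at 0.661 and 0.716 in control and 0.854 and 0.891 in GNA13-deficient libraries. The ratio of TOMM34 to TOMM40 was 1.09 and 1.08 in control and 0.563 and 0.531 in GNA13-deficient libraries. Genotypes overlapped in none of these ratios, which were formed from the values that chose the genes and were not tested.

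**Figure D3:**
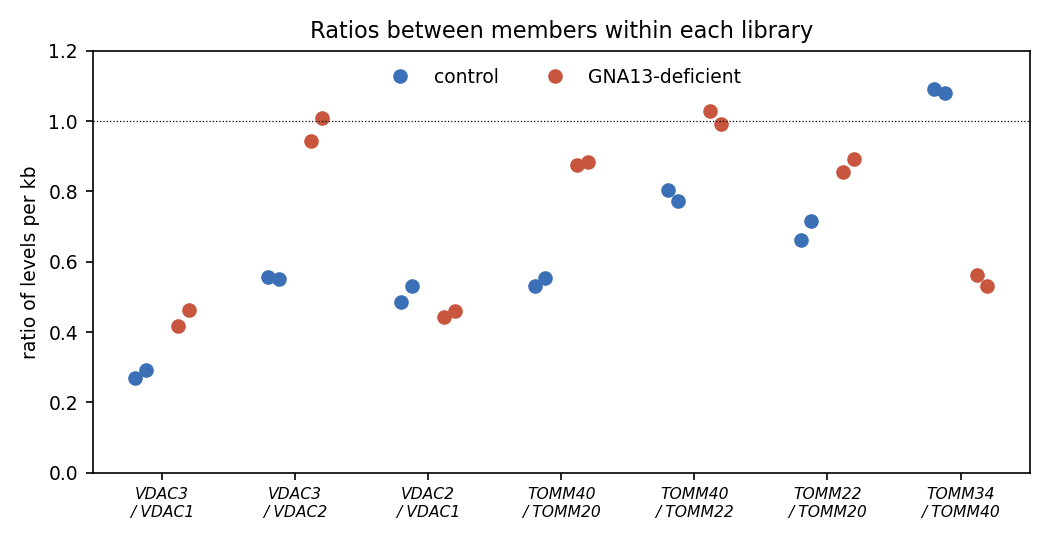
Ratio of levels per kb between pairs of members (vertical axis, no unit) in each library, 2 control and 2 GNA13-deficient points per pair. The ratio of TOMM40 to TOMM20 is 0.531 and 0.553 in control and 0.876 and 0.885 in GNA13-deficient libraries.

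The genes nearest to VDAC3 in pattern were found by the root mean square distance of their centred log2 profiles over the 4 libraries, among 8472 genes. They were H2AFZ (distance 0.0125), CENPM (0.0323), ACOT7 (0.0358), WDR51A (0.0361) and PLEKHO1 (0.0371). H2AFZ, which encodes the histone variant H2A.Z, was at 14.08 and 14.29 in control and 15.07 and 15.25 in GNA13-deficient libraries. With 4 libraries many genes share such a profile, and nothing follows from it about function or control.

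The remaining subunits of the TOM complex were not members. TOMM5, a small subunit beside the pore, was at 11.27 and 11.36 in control and 11.56 and 11.76 in GNA13-deficient libraries, and rose by 0.34 (SE 0.09, limma adjusted p = 0.0417). TOMM7, a small subunit that modulates assembly of the complex, was at 11.83 and 12.01, then 11.47 and 11.56, and fell by 0.41 (SE 0.08, limma adjusted p = 0.0207). Neither TOMM6, with a difference of 0.25 (limma adjusted p = 0.0919), nor the receptor TOMM70, listed as TOMM70A, with 0.13 (limma adjusted p = 0.134), passed the test. Of these 4 subunits, 1 was called higher, 1 lower and 2 not called, where 13.1% of all genes were higher and 16.6% lower. With no filter, and with no variance trend, 0 were higher and 0 lower, so TOMM5 and TOMM7 lost their calls there. With each library centred on its median 3 of the 4 were higher and 0 lower. TOMM7 then lost its call at -0.20, and TOMM6 (0.46) and TOMM70 (0.34) gained one. With the replicate number as a block, TOMM6 and TOMM70 were called as well. The paralogs TOMM20L, at 13 to 21 reads per library, and TOMM40L, with a difference of 0.16 (limma adjusted p = 0.205), did not pass either.

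**Figure D4:**
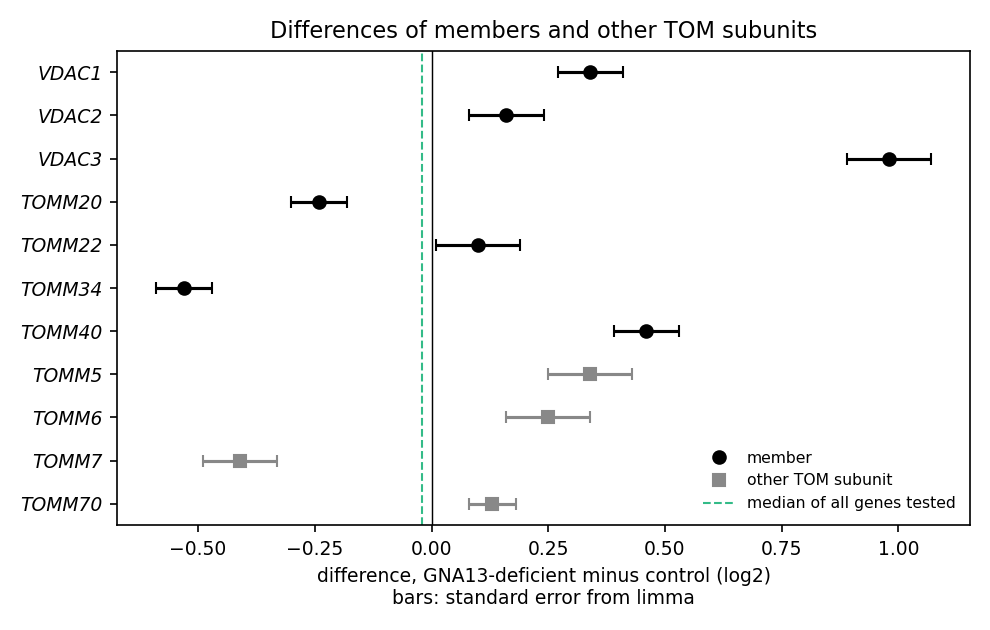
Difference between genotypes (log2, horizontal axis) with its standard error as a bar, for the 7 members and the other 4 TOM subunits, beside the median of all genes tested at -0.02. VDAC3 is at 0.98, TOMM40 at 0.46, TOMM7 at -0.41 and TOMM34 at -0.53.

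A list of 88 other genes of protein import, of the outer membrane and of VDAC partners was read beside the members, and 85 of them were tested. Values in parentheses after a list gene's difference are limma adjusted p values. Of the tested genes, 17 were called higher, 11 lower and 57 were not called, where 13.1% of all genes were higher and 16.6% lower. As deposited, 32.9% of the list genes were called in either direction, near the 29.7% of all genes. The median difference was 0.08. With each library centred on its median the counts were 36 higher and 7 lower, or 50.6% called against 36.8% of all genes. On that scale 69.1% of all genes called were higher. The replicate block gave 54.1% of list genes called against 39.0% of all genes. The filter at the median of the means gave 45.6% against 48.2%. With no variance trend the list share was also below that of all genes. Leaving out any 1 of the 4 libraries left no list gene with an adjusted p under 0.05 in limma, with 21 to 31 of them at an unadjusted p under 0.05.

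Behind the TOM pore, the TIM23 translocase and its motor carry presequence proteins through the inner membrane. Of its 13 genes tested, 6 were called higher and 1 lower, where 13.1% of all genes were higher and 16.6% lower. With no filter, and with no variance trend, 1 was higher and 1 lower. TIMM17B, a channel subunit, rose by 0.40 (limma adjusted p = 0.0273), TIMM50, its receptor, by 0.38 (0.0243) and HSPA9, the matrix Hsp70 of the motor, by 0.43 (0.0115). The nucleotide exchange factor GRPEL2 rose by 0.46 (0.00547). DNAJC15, a J protein of the motor, fell by 0.71 (0.00408). TIMM23 itself was at 6.80 to 7.22 in the 4 libraries with a difference of 0.02 (SE 0.2), so it is not shown to be equal. TIMM23B was not found under a symbol or ID, so no value is given for it. Whether reads of TIMM23B bear on the TIMM23 value was not tested.

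Among 11 genes for presequence processing and matrix folding, 5 were called higher and 0 lower, where 13.1% of all genes were higher and 16.6% lower. Quantile normalization gave 6 higher and 1 lower, and the replicate block 5 higher and 2 lower. With no filter, and with no variance trend, 2 were higher and 0 lower. The 5 called as deposited included LONP1, a matrix protease, at 0.63 (limma adjusted p = 0.00316) and the protease subunit CLPP at 0.50 (0.0268). HSPE1 and HSPD1, the matrix chaperonins, were among them at 0.50 (0.00509) and 0.44 (0.0253). Of 9 genes of the TIM22 route for carrier proteins, 1 was higher and 1 lower. These were TIMM10, an intermembrane space chaperone, at 0.53 (0.00799) and TIMM10B, listed as FXC1, at -0.55 (0.00551). With no filter, and with no variance trend, TIMM10 lost its call. Of 3 genes of the MIA pathway, AIFM1, which anchors the import oxidoreductase CHCHD4, rose by 0.46 (0.00494). Mitochondrial families outside import were read for comparison, taken by symbol. Of 38 subunits of respiratory complex I, 10 were called higher and 0 lower, or 26.3% called against 29.7% of all genes. Of 77 mitochondrial ribosomal proteins, 19 were called higher and 3 lower, or 28.6% called. The shares called higher were 26.3% and 24.7%, against 13.1% of all genes. These families were not counted under the alternatives.

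The SAM complex inserts beta-barrel proteins such as VDAC and TOMM40 into the outer membrane. Of 6 genes of this group 1 was called higher and 1 lower. MTX1, a SAM subunit, rose by 0.30 (limma adjusted p = 0.0298) and MTCH1, an insertase for helical proteins, fell by 0.55 (0.00695). MTX1 lost its call with no filter and with no variance trend. SAMM50, the SAM channel, had a difference of 0.08 (0.494). Among 7 chaperones that carry precursors in the cytosol, HSP90AA1 alone was called as deposited, with a rise of 0.77 (0.0105). This was 14.3% of the group, against 29.7% of all genes. No filter left 0 called, while median centring gave 3 higher and the replicate block 4 higher.

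Of 11 VDAC partners tested, 1 was called higher and 5 lower, where 13.1% of all genes were higher and 16.6% lower. With each library centred on its median 3 were higher and 3 lower. With no filter 1 was higher and 0 lower, and with no variance trend 1 was higher and 2 lower. TSPO, the outer membrane translocator protein, was at 9.88 and 10.11 in control and 8.86 and 9.06 in GNA13-deficient libraries, and fell by 1.04 (SE 0.12, limma adjusted p = 0.00449). The inositol trisphosphate receptors ITPR1, ITPR2 and ITPR3, calcium channels of the endoplasmic reticulum linked to VDAC at contact sites, fell by 0.66 (0.00937), 0.35 (0.0219) and 0.59 (0.00761). HK2, a hexokinase that docks on VDAC, fell by 0.28 (0.0492). SLC25A4, an ADP/ATP carrier of the inner membrane, rose by 0.69 (0.00343). SLC25A5 and SLC25A6, its paralogs, had differences of 0.41 (0.0651) and 0.27 (0.174). SLC25A5 passed the test under 6 alternatives, among them median centring (0.62) and the replicate block, and SLC25A6 under the block. HK1 had a difference of 0.07 and the calcium uniporter MCU, listed as CCDC109A, of 0.05. With median centring HK2 (-0.07) and ITPR2 (-0.14) lost their calls and HK1 (0.28) gained one. HK3 had at most 5 reads in a library, and CKMT1A and CKMT1B were at 0, so no difference is given.

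Of 19 genes of outer membrane dynamics and quality control, 2 were called lower and 0 higher, or 10.5% called against 29.7% of all genes. The replicate block gave 4 higher and 4 lower. SYNJ2BP, an outer membrane protein that tethers other proteins, was at 7.66 and 7.30 in control and 3.62 and 3.56 in GNA13-deficient libraries, from 199, 160, 12 and 11 reads, and fell by 3.89 (SE 0.26, limma adjusted p = 0.00169). MFF, a receptor for the fission protein DRP1, fell by 0.25 (0.0326), but was not called with no filter or with no variance trend. With median centring MFF was at -0.04 and not called. In this group 6 genes were higher and 1 lower on that scale.

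**Figure D5:**
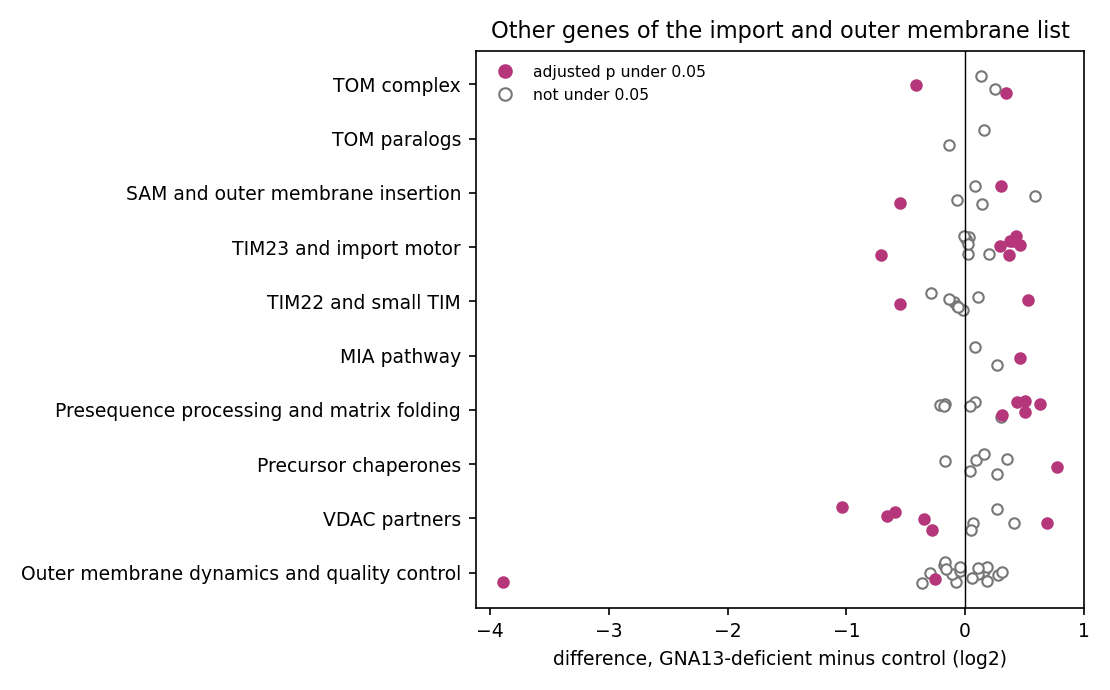
Difference between genotypes (log2, horizontal axis) of each tested list gene by group, filled where the limma adjusted p is under 0.05, without HK3. The TIM23 and presequence groups have 6 and 5 filled points above 0, and SYNJ2BP is at -3.89.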

How the data were processed

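RNA of 4 NUDUL1 libraries was sequenced by the authors from poly(A) libraries (TruSeq Stranded mRNA) and aligned to hg19 with STAR, and HTSeq is named in the submitters' processing notes. The deposited values are normalized reads on the log2 scale, together with a linear total of mapped reads per library that was used only for depth. The counting strand and method of normalization are not given in the sources used here. No per-sample column was left unused (0).

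The deposited log2 values were fitted with limma 3.58.1 in R 4.3.3 (lmFit, then eBayes with trend on). The model held a single term, genotype, which left 2 residual degrees of freedom, and was run on the 16945 genes above 0 in at least 2 libraries. P values are two-sided and adjusted by the Benjamini-Hochberg method over these genes, with a threshold of 0.05. The fit was also run on simulated data with far fewer changed genes than were called here. Its rate of missed genes therefore does not carry over to these data. A gene that was not called is not shown to be equal between genotypes. Whole reads were recovered from the steps of low values for the depth behind a gene. Lengths and positions came from GENCODE v44lift37 (GRCh37).

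The members and lists were chosen with earlier results of these data known. Named genes were the members, GNA13, the other TOM subunits and paralogs, HSPA9, SAMM50, TIMM23 and TIMM50, all VDAC partners, in each other group up to 4 called genes with the largest difference, member pseudogenes in the table and the 5 genes nearest to VDAC3. CD3D, CD3E, CD4, LYZ, EPCAM, HBB and BCL6 come from the marker lists, and those given by name were chosen after their values were seen. Alternatives were other filters, pseudocounts of 1 and 10, quantile normalization, median centring, the replicate number as a block, no variance trend, voom on recovered reads, median transcript length and leaving out each library.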

Additional observations from a re-analysis of the deposited data

How the results depend on the processing

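No member changed direction under any alternative. Genes called fell from 5037 to 1999 with no filter and to 2718 with no variance trend, and list genes called from 28 to 9 and 12. With median centring 43 list genes were called. With the replicate block 6616 genes and 46 list genes were called. Libraries with the same number moved together around their genotype means (correlation 0.453, 8473 genes), but no source says that the numbers pair the samples. Leaving out any 1 library gave 0 to 0 genes and 0 to 0 list genes called by limma, with 5257 to 5600 genes at an unadjusted p under 0.05. Those fits have 1 residual degree of freedom and take the lone library to vary like the other genotype.

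With quantile normalization the differences were 0.13 for VDAC1, 0.04 for VDAC2, -0.38 for TOMM20 and 0.34 for TOMM40. With median centring they were 0.54 for VDAC1, 0.37 for VDAC2, 1.19 for VDAC3, -0.03 for TOMM20, 0.31 for TOMM22, -0.32 for TOMM34 and 0.67 for TOMM40. Without 1 library they ranged from 0.30 to 0.37 for VDAC1, 0.07 to 0.26 for VDAC2, 0.89 to 1.07 for VDAC3, -0.29 to -0.19 for TOMM20, 0.02 to 0.18 for TOMM22, -0.57 to -0.49 for TOMM34 and 0.40 to 0.51 for TOMM40. With the median transcript length the control shares were 43.24% for VDAC1, 34.69% for VDAC2 and 22.07% for VDAC3, and the control levels 7551.1 reads per kb for VDAC2, 4802.7 for VDAC3 and 3054.2 for TOMM40. Leaving out a library aside, 9 of the 25 named list genes that were called kept their call under every alternative that tested them. SYNJ2BP is among these 9, although the filter at the median of the means removed it. None of the 25 changed direction.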
